A study of Mus musculus with 16 samples.

Results

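Interferon-stimulated genes, 9 in number, were followed in single cells of Brca1-deleted mouse mammary tumours with and without a Myc construct. They are Isg15, Ifit1, Ifit2, Ifit3, Irf7, Usp18, Bst2, Ifitm1 and Ifitm3, and all 9 were taken by symbol, with no threshold on their values. All 9 were among the 23467 genes of the 8 count tables, and each had at least 1 count in a kept cell. The cells came from end-stage tumours of female FVB/n mice. WB1P tumours arose in untreated WapCre;Brca1F/F;Trp53F/F animals, in which Cre under the Wap promoter, active in milk-producing mammary epithelium, deletes Brca1 and Trp53. WB1P-Myc tumours arose in untreated WapCre;Brca1F/F;Trp53F/F;Myc animals, which carry the same 2 deletions plus a Cre-activated Myc-IRES-luciferase cassette in the Col1a1 locus. Live single cells sorted from the tumours were captured by Drop-seq, which counts the 3′ ends of transcripts as unique molecular identifiers (UMIs). The paper's methods describe 4 droplet fractions of 1 sample per model, while a figure legend gives 2 mice per model. No fraction is assigned to a mouse. Fractions were therefore treated as technical and each model as 1 sample, so differences between models have no replicate check. No test between models was made.

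Type I interferons are secreted when cells sense foreign or misplaced nucleic acid, bind the receptor formed by Ifnar1 and Ifnar2, and act through the kinases Jak1 and Tyk2 on a complex that includes Irf9. That complex binds the interferon-stimulated response element of its target promoters and switches on a broad antiviral programme. Deficient DNA repair is a known source of such nucleic acid in tumour cells, and in breast tumours the programme is studied for its link to immune cell recruitment. Among the members, Isg15 is a ubiquitin-like protein that is attached to other proteins, and Usp18 is the protease that removes it and dampens the receptor. Ifit1, Ifit2 and Ifit3 bind foreign RNA or each other, Irf7 is the transcription factor that amplifies interferon production, and these 6 act inside the cell. Bst2 (tetherin) holds budding viruses at the cell surface, while Ifitm1 and Ifitm3 are small membrane proteins that block virus entry.

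Promoters of members are shown for the response element, the sequence through which type I interferon acts. Promoters were matched by symbol to a RefSeq table of build GRCm38.p6, which gave 8 of the 9 members, all but Usp18. The letters GAAANNGAAA, the core of the response element, were searched on both strands from 200 bases before the start of transcription to 30 after it. Of the 8 members 5 held at least 2 matches, and Ifit2, Irf7 and Ifitm1 held none. The stretch searched for Ifitm1, chr7:140967876-140968105, lies inside the gene as placed by the GENCODE M21 annotation, which begins it at base 140967221. That outer start was not searched. Among all 32851 promoters of the table, 2.58% held at least 1 match in the same 230 bases and 0.161% at least 2. The 5 promoters are shown 5′ to 3′ in the direction of the gene, with matches in capitals; on the opposite strand the match reads TTTCNNTTTC, and matches that overlap run together.
Isg15, chr4:156200789-156201018, minus strand: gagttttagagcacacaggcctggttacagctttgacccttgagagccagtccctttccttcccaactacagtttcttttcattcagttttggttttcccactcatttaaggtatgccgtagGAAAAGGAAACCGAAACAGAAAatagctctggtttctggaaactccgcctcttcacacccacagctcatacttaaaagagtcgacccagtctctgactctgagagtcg
Ifit1, chr19:34640689-34640918, plus strand: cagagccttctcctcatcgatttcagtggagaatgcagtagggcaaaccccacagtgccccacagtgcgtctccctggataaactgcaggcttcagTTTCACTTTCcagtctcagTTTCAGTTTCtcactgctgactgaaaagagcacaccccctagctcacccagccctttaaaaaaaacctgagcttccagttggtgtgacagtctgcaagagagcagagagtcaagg
Ifit3, chr19:34583329-34583558, plus strand: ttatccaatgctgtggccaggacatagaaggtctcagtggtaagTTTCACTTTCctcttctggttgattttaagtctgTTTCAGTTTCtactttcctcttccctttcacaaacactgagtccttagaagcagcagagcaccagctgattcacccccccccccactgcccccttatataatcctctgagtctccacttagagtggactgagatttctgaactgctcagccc
Bst2, chr8:71537443-71537672, minus strand: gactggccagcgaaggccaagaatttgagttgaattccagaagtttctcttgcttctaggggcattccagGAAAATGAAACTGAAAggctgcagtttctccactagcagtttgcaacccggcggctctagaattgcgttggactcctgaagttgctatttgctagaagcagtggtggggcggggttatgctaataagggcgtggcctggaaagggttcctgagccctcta
Ifitm3, chr7:141010715-141010944, minus strand: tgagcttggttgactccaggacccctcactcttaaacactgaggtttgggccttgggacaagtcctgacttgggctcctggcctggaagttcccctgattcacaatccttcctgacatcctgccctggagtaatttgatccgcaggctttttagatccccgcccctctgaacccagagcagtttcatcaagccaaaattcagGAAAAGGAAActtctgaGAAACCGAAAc
The 3 overlapping matches of Isg15 begin 78, 72 and 66 bases before the start, and those of Ifit1 104 and 85 bases before it. In Ifitm3 both matches lie just after the start, 2 and 19 bases into the transcript. A match describes letters only, and binding was not measured.

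The genes lie in a few loci of GRCm38 per GENCODE M21. Ifit2 (chr19:34550694-34576419), Ifit3 (chr19:34583531-34588731) and Ifit1 (chr19:34640871-34650009) form 1 cluster on chromosome 19, all on the plus strand. Ifitm1 (chr7:140967221-140969825, plus strand) and Ifitm3 (chr7:141009586-141010770, minus strand) are neighbours on chromosome 7, with Irf7 (chr7:141262706-141266481, minus strand) further along. Isg15 (chr4:156199424-156200818, minus strand), Usp18 (chr6:121245906-121270917, plus strand) and Bst2 (chr8:71534255-71537456, minus strand) lie apart. All 9 are protein-coding. Because Drop-seq reads the 3′ end, the last 500 bases of each transcript were compared with all other genes in windows of 60 bases. Of the 441 windows, 12.9% of those of Ifit3 were identical to its paralogue Ifit3b, 7.71% of those of Ifitm3 and 5.90% of those of Ifitm1 were found in other genes of that family or its pseudogenes, and 0 were shared for the other 6 members. The counts of Ifit3, Ifitm1 and Ifitm3 are therefore less certain. How reads spread over these bases and how shared reads were counted was not known, so the share of counts affected is not known either.

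The WB1P libraries held 256985 to 1918672 UMIs and the WB1P-Myc libraries 3814562 to 4960334. Of the 4798 cells with 450 to 4000 genes and under 20% mitochondrial UMIs, 1307 were WB1P and 3491 WB1P-Myc, with medians of 1724 and 2359 UMIs, and WB1P fraction 1 gave 65 of them. Across all pairs of the 8 libraries, 3 cell barcodes were shared. Cells were clustered without the members and their pathway genes, and clusters were named from cell type markers. This gave 1897 epithelial-like, 979 Schwann-like, 876 macrophage-like, 390 fibroblast-like, 110 endothelial-like, 103 pericyte-like and 44 T or NK-like cells, plus 2 unnamed groups. Cluster 6 (249 cells, all WB1P-Myc) was led by Dlk1, Slc38a4, Gap43 and Mest, and cluster 2.2 (150 cells of both models) by Mgl2, Il1r2, Dcstamp and MHC class II genes. Epithelial-like cells of WB1P came mostly from cluster 4 (651 of 671) and those of WB1P-Myc mostly from cluster 1 (1220 of 1226), and 977 of the 979 Schwann-like cells were WB1P-Myc. Myc was at 67.3 UMIs of every 1000000 UMIs (CPM) in WB1P and 193 CPM in WB1P-Myc epithelial-like cells, but whether the counted 3′ end tells the construct from the endogenous gene is not stated. The same holds for the floxed parts of Brca1 (5.40 and 12.2 CPM) and Trp53 (7.86 and 13.8 CPM), so these values check no label.

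In both models most members were higher in macrophage-like and fibroblast-like cells than in epithelial-like cells. Levels are CPM from UMIs summed over the cells of a class, with exact 95% Poisson intervals that cover counting error only. In WB1P, Isg15 was at 33.9 CPM (26.4 to 42.9) in epithelial-like cells, 197 CPM (156 to 245) in macrophage-like cells and 169 CPM (136 to 209) in fibroblast-like cells. In WB1P-Myc, the same classes held 16.8 CPM (12.9 to 21.6), 90.4 CPM (73.9 to 109.5) and 127 CPM (105 to 153). Every fraction with at least 20000 UMIs in both classes had more Isg15 in macrophage-like and in fibroblast-like than in epithelial-like cells. Of the 9 members, 7 were at least 2-fold higher in macrophage-like than in epithelial-like cells of WB1P, where 16.3% of all genes with at least 10 UMIs were, and 7 were higher in every fraction (18.8% of genes). Ifit1 was 1 of the former 7, and its log2 ratio of 1.70 turned to -1.14 without WB1P fraction 4. In WB1P-Myc all 9 were, where 19.9% of such genes were, and all 9 were higher in each of the 4 fractions (22.6% of genes). Fibroblast-like cells were at least 2-fold above epithelial-like cells in 6 of 9 members in WB1P (16.4% of genes) and in 7 of 9 in WB1P-Myc (20.8% of genes). They were higher in every fraction in 5 (21.2% of genes) and 6 (21.6% of genes) of 9. The 6 members at least 2-fold higher in WB1P were Isg15, Ifit1, Ifit3, Irf7, Bst2 and Ifitm3. Among them Ifit3 rests on 6 and 6 UMIs. The log2 intervals of Irf7 (-0.01 to 2.96) and Bst2 (-0.11 to 2.80) included 0. Usp18 was lower in the fibroblast-like cells of WB1P (log2 -0.78, -2.76 to 0.74).

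**Figure D1:**
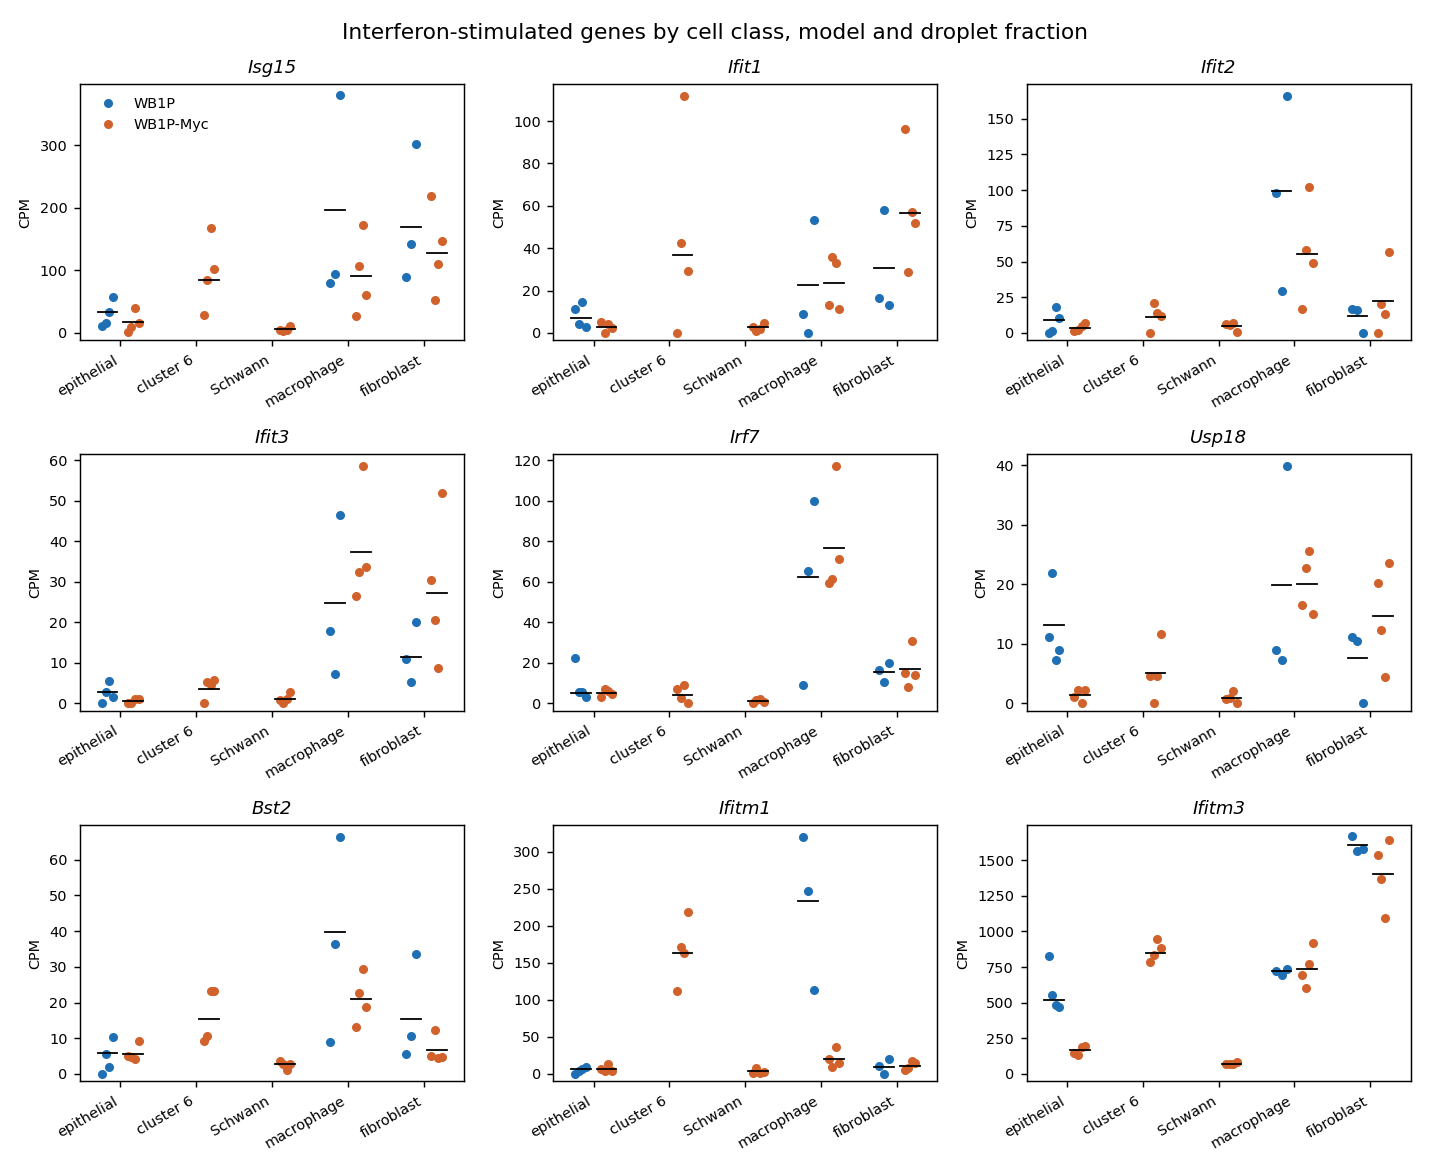
CPM of each interferon-stimulated gene in 5 cell groups. Each point is 1 droplet fraction with at least 20000 UMIs in that group (WB1P blue, WB1P-Myc orange) and the black line is the level pooled over all fractions; axes are linear and differ between genes. Isg15 in epithelial-like cells spans 11.2 to 56.6 CPM in WB1P and 1.03 to 39.9 in WB1P-Myc, below most points of the macrophage-like and fibroblast-like cells.

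The order of classes differed between members. For Isg15 in WB1P, cluster 2.2 (197 CPM), macrophage-like (197 CPM), fibroblast-like (169 CPM) and endothelial-like cells (165 CPM) had overlapping intervals. The epithelial-like cells, lowest in level, overlapped the pericyte-like cells (46.7 CPM, 3 UMIs). The endothelial-like level rests on 10 UMIs, 5 of them in 1 cell, and the only fraction with at least 20000 UMIs was at 44.2 CPM. In WB1P-Myc, cluster 2.2 was highest for Isg15 (234 CPM), the intervals of neighbouring classes overlapped down to the pericyte-like cells, and epithelial-like and then Schwann-like cells (5.59 CPM, 3.62 to 8.25) stood below them without overlap. Ifitm3 was instead highest in endothelial-like (2639 CPM) and pericyte-like cells (2476 CPM) of WB1P, followed by fibroblast-like cells (1604 CPM), cluster 2.2 (1061 CPM), macrophage-like (722 CPM) and epithelial-like cells (519 CPM). Only the first pair in that order had overlapping intervals. In WB1P-Myc the order was another, with Ifitm3 highest in cluster 2.2 (2168 CPM, 1860 to 2513). Endothelial-like cells (1840 CPM) overlapped it, and pericyte-like cells (974 CPM) stood below fibroblast-like cells (1402 CPM). Ifitm1 was highest in cluster 2.2 of both models, at 514 CPM (429 to 612) in WB1P and 714 CPM (543 to 924) in WB1P-Myc, and the next class had no overlap with it. In fibroblast-like cells, which held the third highest Ifitm3 level in both models, Ifitm1 was at 9.62 CPM in WB1P and 11.4 CPM in WB1P-Myc. The Schwann-like cells of WB1P-Myc were at least 2-fold below the epithelial-like cells for 5 of the 7 members with at least 10 UMIs (12.5% of genes): Isg15, Irf7, Bst2, Ifitm1 and Ifitm3. Without fraction 3 it was 2 of 7, with Isg15 at a log2 ratio of -0.50. Irf7, Bst2 and Ifitm3 were lower in every fraction (21.9% of genes).

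**Figure D2:**
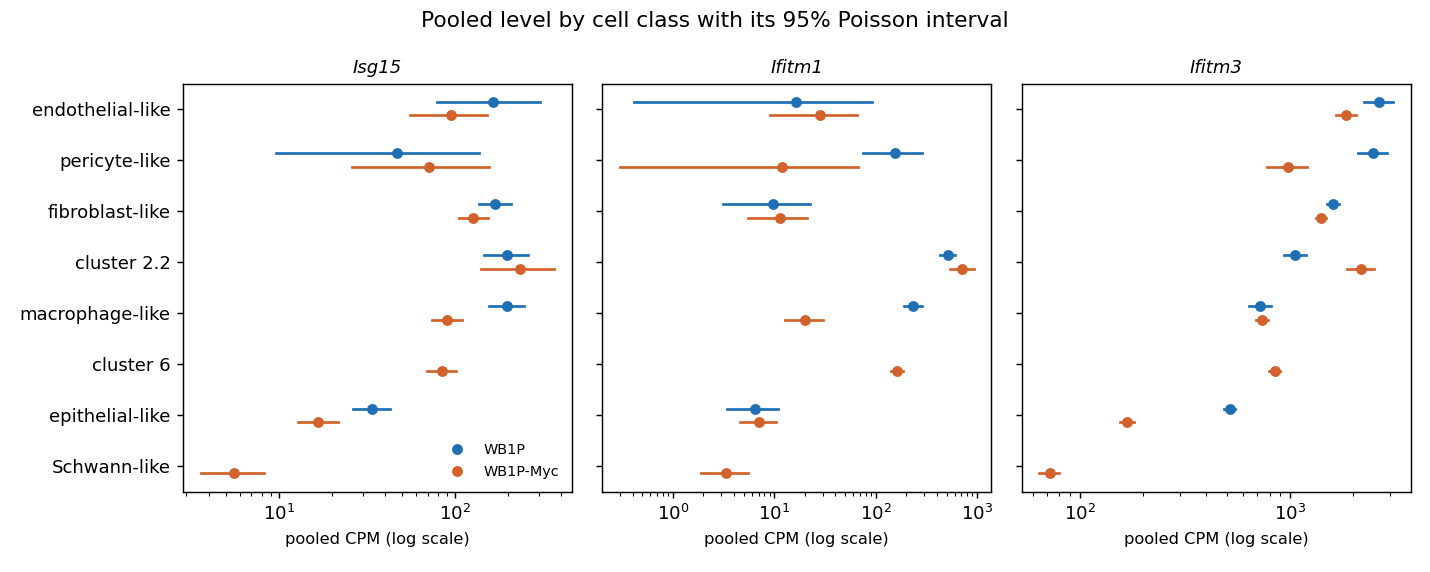
Pooled CPM (log axis) of Isg15, Ifitm1 and Ifitm3 in 8 cell groups of WB1P (blue) and WB1P-Myc (orange), with exact 95% Poisson intervals. Ifitm1 is highest in cluster 2.2 of both models (514 and 714 CPM). Cluster 6 (163 CPM) comes next in WB1P-Myc, at a level below the macrophage-like cells of WB1P (234 CPM). Ifitm3 is lowest in Schwann-like cells (72.0 CPM).

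Free RNA from lysed cells enters every droplet, so the low levels in tumour cells were set beside lineage markers measured in the same way. The macrophage genes C1qa, C1qb, C1qc and Tyrobp together reached 0.481% of their macrophage-like level in epithelial-like cells of WB1P and 1.40% in those of WB1P-Myc. Isg15 reached 17.2% and 18.6% of its macrophage-like level in the same cells. Ifitm3 reached 71.8% and 22.8%. Other classes held Isg15 and Ifitm3 too, so macrophage markers alone do not measure the free RNA of these genes. The share of epithelial-like UMIs taken as free RNA for a later subtraction was 1.40% to 5.27% in the WB1P fractions. In the WB1P-Myc fractions it was 4.46% to 17.8%. In WB1P-Myc epithelial-like cells Ifit3 was at 1.45% of its macrophage-like level (2 UMIs), close to the marker value, and Irf7 in Schwann-like cells was at 1.46% (5 UMIs), against 0.751% for the markers there.

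The 6 intracellular members were found together in few cells. In WB1P macrophage-like cells, 5 of 263 cells (1.90%, exact interval 0.620 to 4.38) had UMIs of at least 3 of Isg15, Ifit1, Ifit2, Ifit3, Irf7 and Usp18, and these held 62.6% of all UMIs of the 6 genes in the class. In WB1P-Myc macrophage-like cells it was 19 of 613 cells (3.10%, 1.88 to 4.80) with 50.1% of the UMIs. After thinning each cell to 600 UMIs the shares were 1.90% (0.620 to 4.38) and 0.816% (0.265 to 1.89). The intervals of the models overlapped before and after thinning, so these shares give no order of the models. Among fibroblast-like cells, 3 of 173 in WB1P held 35.9% of the UMIs of the 6 genes and 7 of 217 in WB1P-Myc held 48.7%, and after thinning 2 and 0 cells met the rule. Among epithelial-like cells, 3 of 671 in WB1P and 2 of 1226 in WB1P-Myc had 3 or more of the 6. These cells were chosen by counts of the same 6 genes, so their shares of the UMIs are partly set by the rule. No share for comparison was computed. Of the 107 UMIs behind the 62.6%, a cell of WB1P fraction 4 held 53 and another cell of that fraction 34.

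Single cells with all 6 were found in each of the 3 classes. A macrophage-like cell of WB1P fraction 4 held 53 UMIs of the 6 genes out of 4074 UMIs, among them 27 of Isg15 and 11 of Ifit2, with 34 UMIs of C1q genes and 0 of Epcam and Col1a1. That cell alone carried 27 of the 79 Isg15 UMIs of its class. A fibroblast-like cell of WB1P-Myc fraction 4 held 51 UMIs of the 6 genes and 36 of Col1a1, with 0 of C1q and Epcam. An epithelial-like cell of WB1P fraction 3 held 24, including 7 of Isg15 and 7 of Ifit1, with 24 of Epcam and 0 of C1q and Col1a1. UMIs of 1 cell are not independent, so the counting intervals given here are narrower than the true error.

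In macrophage-like and epithelial-like cells, other members were detected more often in cells with Isg15. Of the 53 WB1P-Myc macrophage-like cells with Isg15, 56.6% (42.3 to 70.2) had at least 1 other of the 6, against 13.8% (77) of the 560 cells without it, at median depths of 1611 and 1501 UMIs. After thinning they were 15 of 25 cells and 36 of 588 (6.12%). In WB1P macrophage-like cells they were 45.8% of 24 cells and 6.28% of 239, at medians of 1284 and 1255 UMIs. In WB1P epithelial-like cells they were 39.4% of 33 and 4.23% of 638, but there the cells with Isg15 were deeper (medians of 4149 and 1805 UMIs), and after thinning they were 33.3% of 9 and 0.755% of 662. Fibroblast-like shares went the same way, at 25% of 32 (11.5 to 43.4) and 8.51% of 141 (4.48 to 14.4) in WB1P. In WB1P-Myc they were 40.8% of 49 (27.0 to 55.8) and 11.3% of 168 (6.95 to 17.1), at medians of 4519 and 2955.5 UMIs. After thinning they were 25% of 12 (5.49 to 57.2) and 2.48% of 161 (0.681 to 6.24) in WB1P. The thinned WB1P-Myc shares were 18.2% of 11 (2.28 to 51.8) and 5.34% of 206 (2.70 to 9.35). In both models the thinned intervals overlapped.

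**Figure D3:**
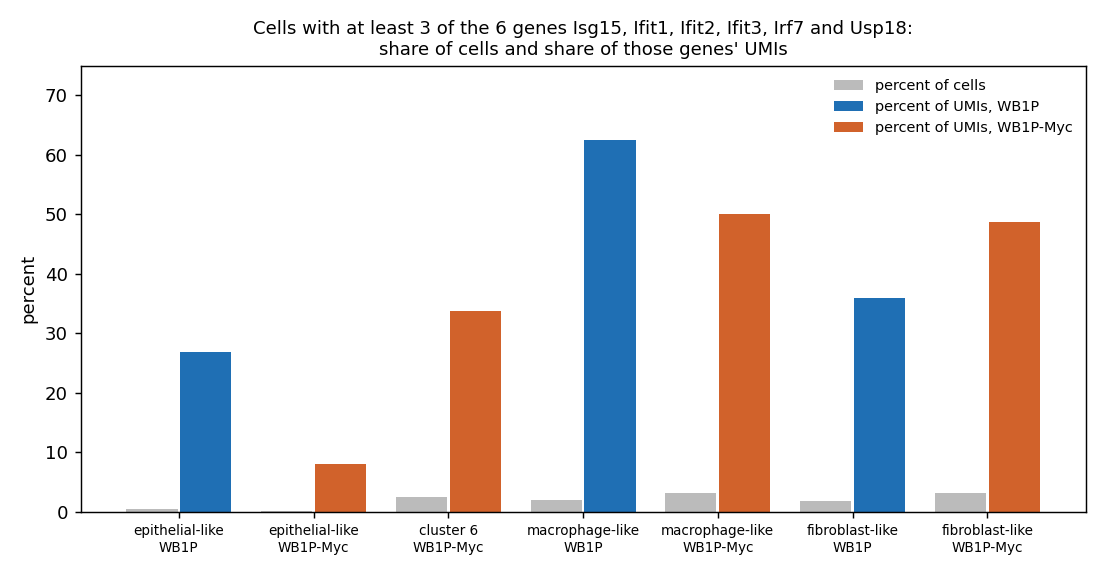
Cells with UMIs of at least 3 of the 6 intracellular members, by class and model: percent of cells (grey) and percent of all UMIs of these 6 genes that those cells held (blue WB1P, orange WB1P-Myc). In WB1P macrophage-like cells 1.90% of cells held 62.6% of the UMIs. The cells were chosen by counts of the same 6 genes, so these shares are partly set by the rule.

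Between the models, the epithelial-like cells of WB1P-Myc held less Ifitm3 and Usp18 than those of WB1P in every fraction. Ifitm3 was at 829, 552, 484 and 469 CPM in WB1P fractions 1 to 4 and at 146, 136, 193 and 198 CPM in WB1P-Myc. The 2 sets did not overlap, and the pooled levels of 519 CPM (1056 UMIs) and 168 CPM (621 UMIs) gave a log2 ratio of WB1P-Myc over WB1P of -1.62 (-1.77 to -1.48). Usp18 was at 11.2, 21.9, 7.33 and 8.94 CPM in WB1P and at 1.03, 2.31, 0 and 2.29 CPM in WB1P-Myc. This rests on 27 and 5 UMIs, with a log2 ratio of -3.29 (-5.02 to -1.89), which was -2.63 without WB1P fraction 2. Of the 8 members with at least 10 UMIs in the class, these 2 were the ones whose fractions did not overlap, both lower in WB1P-Myc, where 13.3% of genes were, and 0 were higher in every fraction (17.5% of genes). Ifit3, with 8 UMIs in all, was not counted.

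Isg15 was at 11.2, 16.4, 33.0 and 56.6 CPM in the WB1P fractions and at 1.03, 9.23, 39.9 and 16.0 CPM in the WB1P-Myc fractions. These overlap, and the pooled log2 ratio was -1.01 (-1.53 to -0.49), -0.43 without WB1P fraction 4 and -2.0 without WB1P-Myc fraction 3. A single cell of 11928 UMIs in the latter fraction held 21 of the 62 Isg15 UMIs of WB1P-Myc, and without the cell richest in the 6 intracellular members in each model the ratio was -1.45. Ifit1 (14 and 11 UMIs, log2 -1.20) and Ifit2 (18 and 14 UMIs, log2 -1.22) were also lower in the pooled level with overlapping fractions, and Irf7 (-0.07), Bst2 (-0.05, but 0.64 without WB1P fraction 4) and Ifitm1 (0.14) lay near 0. In all, 5 of 8 members were at least 2-fold lower in WB1P-Myc (17.5% of genes) and 0 were at least 2-fold higher (19.8% of genes). The count was 3 of 8 without WB1P fraction 3, where Ifit1 was at -0.43 and Ifit2 at -0.50, and 3 of 8 also without WB1P-Myc fraction 1 or 2 or without the cell richest in the 6 genes. The median log2 ratio over the 8 members was -1.11, and -0.47 without WB1P fraction 3, beside 0.02 over 8870 genes with at least 50 UMIs in all fractions. The listed epithelial markers were summed at 6053 CPM in WB1P, where Krt5 was at 0, and at 2831 CPM in WB1P-Myc, and the 10 Schwann markers at 266 and 1010 CPM (224 to 278 and 933 to 1075 over fractions), and their part in these ratios was not tested.

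These epithelial-like values depend on which WB1P-Myc cells are counted. Cluster 6 held most markers of several classes, but at low levels. Its summed level of 14 epithelial markers, 12 of them detected, was 402 CPM, beside 2831 CPM in WB1P-Myc epithelial-like cells. The same sum was higher, at 604 CPM, in cluster 2.2 of WB1P-Myc, a group not named epithelial-like. It was lower in the Schwann-like, macrophage-like and fibroblast-like cells of that model, at 189, 163 and 131 CPM. This sum alone therefore does not give cluster 6 an epithelial name. Cluster 6 held all 12 fibroblast markers, at 1659 CPM, against 389 CPM in epithelial-like and 52499 CPM in fibroblast-like cells of WB1P-Myc. Its Myc level was 212 CPM, beside 193 CPM in epithelial-like, 25.2 CPM in macrophage-like, 103 CPM in fibroblast-like and 119 CPM in Schwann-like cells of the same model. With cluster 6 counted as epithelial-like, a choice made after its values were seen, the median was -0.13 over 9 members, since Ifit3 (6 and 7 UMIs, 2.95 and 1.38 CPM) then passed 10 UMIs. Isg15 then was 33.9 CPM in WB1P and 35.0 CPM in WB1P-Myc, and Ifitm1 was 6.38 and 49.3 CPM, with all WB1P-Myc fractions (39.2 to 64.1) above all WB1P fractions (0 to 8.94), as were 18.7% of genes. Ifitm3 stayed lower in every WB1P-Myc fraction (328 to 391 CPM, against 469 to 829), at a log2 ratio of -0.56, and so did Usp18 (0.840 to 4.93 CPM, against 7.33 to 21.9), at -2.48, where 13.3% of genes were lower in every fraction. In 4 other clusterings, 97.6% to 99.6% of the cluster 6 cells were called epithelial-like, and the median lay between -0.23 and 0.067. In all 4 the WB1P-Myc class also lost other cells, keeping 481 of 1226 with a minimum of 200 genes, 532 of 1068 under 10% mitochondrial UMIs, 1152 of 1226 with no maximum of genes and 1106 of 1226 with all genes in the clustering, and the part of each change in the median was not tested. At a finer resolution 1 of the 249 cluster 6 cells and 329 of the 1226 others had the name, and the median was -0.70.

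Cluster 6 itself carried more of the members than the epithelial-like cells of the same tumours. Ifitm1 was at 112, 171, 163 and 218 CPM in its 4 fractions and at 7.20, 3.46, 13.3 and 3.44 CPM in the epithelial-like cells, a log2 ratio of 4.53 (3.94 to 5.18) between pooled levels. Ifitm3 was at 784, 831, 948 and 881 CPM, against 136 to 198 CPM, a log2 ratio of 2.33 (2.19 to 2.47). Isg15 was at 27.9, 84.4, 168 and 102 CPM, against 1.03, 9.23, 39.9 and 16.0 CPM, a log2 ratio of 2.32 (1.87 to 2.79) that was 3.01 without fraction 3. Bst2, with 21 UMIs in each group, was higher as well in every fraction. These 4 of 8 members were higher in every fraction, as were 14.1% of genes, and 7 of 8 were at least 2-fold higher (9.16% of genes).

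Other members were uneven in cluster 6. Ifit1 was at 0, 42.2, 112 and 29.1 CPM, so fraction 1 held none. Irf7 was at 4.39 CPM, beside 5.15 CPM in the epithelial-like cells and 76.5 CPM in macrophage-like cells. Of the 37 cells with Isg15, 51.4% had another of the 6, against 5.19% of the 212 without, and 33.3% of 15 against 1.71% of 234 after thinning. The macrophage markers C1qa, C1qb, C1qc and Tyrobp were at 0.443% of their macrophage-like level in cluster 6, while Isg15 was at 93.1% of it and Ifit1 at 156%. Beside the fibroblast-like level, Col1a1, Col1a2 and Col3a1 together were at 3.45%, Isg15 at 66.2% and Ifit1 at 64.5%.

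In macrophage-like cells, Ifitm1 was the member that differed between the models. It was at 321, 247 and 113 CPM in WB1P fractions 2 to 4 and at 19.9, 9.72, 36.6 and 15.0 CPM in the WB1P-Myc fractions, with no overlap (WB1P fraction 1 held 2 cells of this class, with 7 Ifitm1 UMIs, and only enters the pooled level). The pooled levels of 234 CPM (94 UMIs in 27 of 263 cells) and 19.99 CPM (23 UMIs in 16 of 613 cells) gave a log2 ratio of -3.55 (-4.27 to -2.88). It was 1 of 9 members lower in every WB1P-Myc fraction, as were 3.82% of genes, and it was at least 2-fold lower together with Isg15 (5.67% of genes). None of the 9 was at least 2-fold higher (13.6% of genes) or higher in every fraction (10.3% of genes). Without WB1P fraction 4, 3 of 9 were at least 2-fold higher, Ifit1 at 2.56, Ifit3 at 1.65 and Usp18 at 1.33. The 27 WB1P cells with Ifitm1 held the cluster 2.2 genes Mgl2, Il1r2 and Dcstamp at 1735 CPM, against 346 CPM in the 236 cells without it, and the listed neutrophil genes other than Il1r2 at 1409 against 284 CPM. Over the whole class, 7 of the 8 neutrophil markers had UMIs in WB1P and 5 of 8 in WB1P-Myc, Ly6g was at 0 in both, and their sum was 339 to 530 CPM in the WB1P fractions and 56.3 to 168 CPM in the WB1P-Myc fractions. The part of these cells in the Ifitm1 difference was not tested. Counting the whole leukocyte cluster, with cluster 2.2 and the T or NK-like cells, gave a log2 ratio of -2.33.

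The other members were less separated in macrophage-like cells. Isg15 was at 80.2, 94.4 and 379 CPM in WB1P and at 26.5, 107, 172 and 60.03 CPM in WB1P-Myc, which overlap. Its log2 ratio of -1.12 (-1.56 to -0.68) became 0.047 without WB1P fraction 4, the fraction with the cell of 27 Isg15 UMIs, and -0.72 without the cell richest in the 6 genes in each model. Ifit2 was at 98.0, 29.1 and 166 CPM against 16.5, 58.3, 103 and 48.8 CPM, a log2 ratio of -0.84 that became -0.10 without the same fraction. Ifitm3 was nearly level, at 722, 697 and 738 CPM against 692, 603, 769 and 919 CPM, with a log2 ratio of 0.03 (-0.16 to 0.23). Irf7 (0.30), Ifit3 (0.59), Ifit1 (0.07), Usp18 (0.01) and Bst2 (-0.93) all had intervals that included 0. Without WB1P fraction 4, Ifit1 was at 2.56, Irf7 at 0.94 and Bst2 at -0.19, and without WB1P fraction 3 Ifit1 was at -0.54. The median over the 9 members was 0.01, beside 0.14 over 4438 genes.

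In fibroblast-like cells no member separated the models. Ifitm3 was high in both, at 1669, 1564 and 1576 CPM in WB1P fractions 2 to 4 and at 1535, 1368, 1097 and 1644 CPM in WB1P-Myc, a log2 ratio of -0.19 (-0.32 to -0.07). Isg15 was at 88.7, 142 and 302 CPM against 218, 53.2, 109.7 and 146 CPM, a log2 ratio of -0.41 (-0.83 to 0.01), and 0.13 without WB1P fraction 4. Ifit1 was at 16.6, 57.9 and 13.4 CPM against 96.3, 28.7, 57.1 and 52.0 CPM, a log2 ratio of 0.88 (0.05 to 1.79) that was 1.90 without WB1P fraction 3. Ifit3 (6 and 24 UMIs, 1.24) was at least 2-fold higher (10.1% of genes) and Bst2 (8 and 6 UMIs, -1.18) at least 2-fold lower (5.41% of genes), both with intervals that included 0. Bst2 was at -0.25 without WB1P fraction 4, and Ifit3 at 0.84 without WB1P fraction 3 and 0.75 without WB1P-Myc fraction 4. The fractions of the 2 models overlapped for all 9 members, while 4% of genes were lower and 5.8% higher in every WB1P-Myc fraction. The median over members was 0.24, beside 0.06 over 4147 genes.

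**Figure D4:**
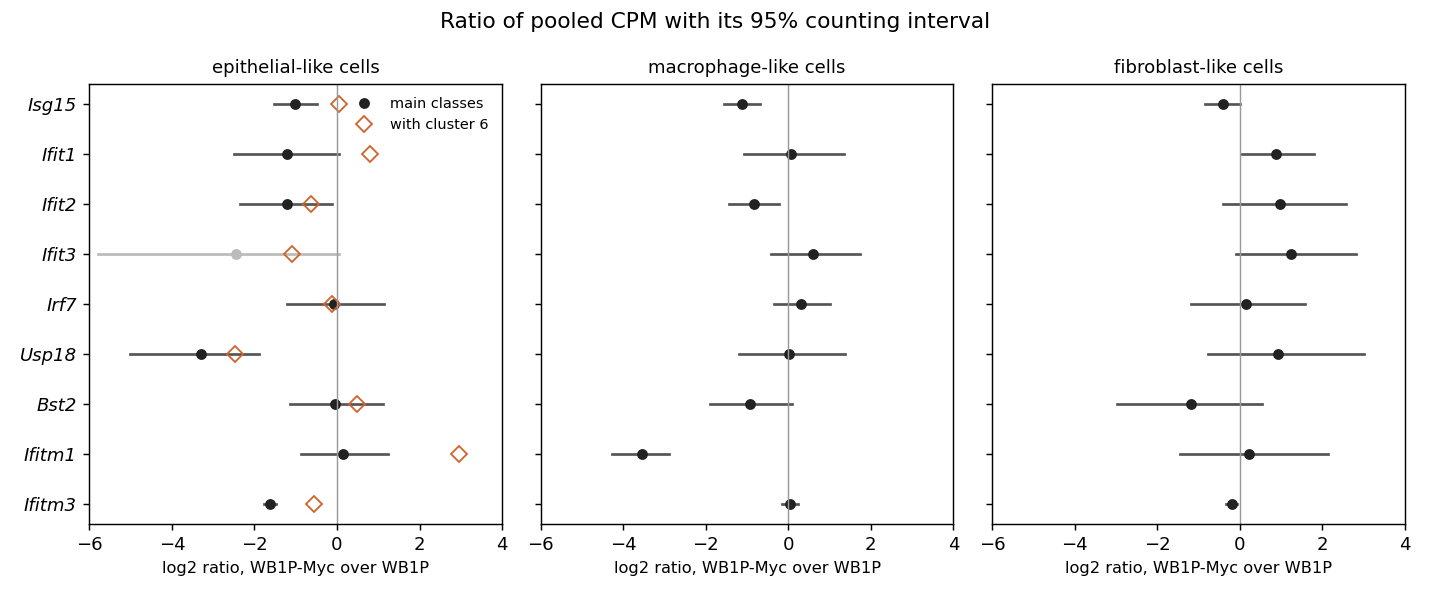
Log2 ratio of pooled CPM, WB1P-Myc over WB1P, for the 9 genes in 3 cell classes. Points are pooled ratios, lines exact 95% counting intervals (grey for Ifit3 in epithelial-like cells, under 10 UMIs), and open diamonds the epithelial-like ratios with cluster 6 counted in. Ifitm3 in epithelial-like cells lies at -1.62 and moves to -0.56 with cluster 6, and Ifitm1 in macrophage-like cells lies at -3.55.

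The rest of the pathway was read from listed genes with at least 50 UMIs in a class. Of 10 interferon ligands, 3 were in the tables, with 4 UMIs of Ifna4 in 2 cells of cluster 6, 1 UMI of Ifng in a T or NK-like cell of WB1P-Myc and 1 UMI of Ifnk in a macrophage-like cell of WB1P. Interferon alpha genes are near-identical copies, so the name of the first is uncertain. Among 9 receptors and signal transducers in epithelial-like cells, 5 were lower in every WB1P-Myc fraction and 0 higher (17.4% and 19.4% of genes with at least 50 UMIs): the receptor chains Ifnar1, Ifnar2, Ifngr1 and Ifngr2 and the transcription factor subunit Irf9. With cluster 6 counted as epithelial-like, Ifngr1 (log2 -0.34, -0.79 to 0.13, without it) overlapped and the other 4 stayed lower. Ifnar1 was at 38.3 and 14.1 CPM (log2 -1.44, -1.98 to -0.92) and Ifnar2 at 56.5 and 23.9 CPM (log2 -1.24, -1.66 to -0.83). Ifngr2 was at 67.1 to 82.5 CPM in WB1P and 14.4 to 24.6 CPM in WB1P-Myc, a log2 ratio of -1.96 (-2.39 to -1.54).

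Of 5 sensors and adaptors, 2 were lower in every WB1P-Myc fraction of the epithelial-like cells, among them Tmem173 (STING, the adaptor of cytosolic DNA sensing) at 25.7 to 44.8 CPM in WB1P and 2.31 to 10.2 CPM in WB1P-Myc (log2 -2.15, -2.90 to -1.45; -0.85 with cluster 6). The other was Ddx58, the RNA sensor RIG-I, at 22.1 and 11.1 CPM (log2 -0.99), which overlapped with cluster 6 counted. None of 3 interferon gamma targets was separated. With cluster 6 counted, 6 genes of each of these lists were measured. Tmem173 was lower in every WB1P-Myc fraction, and the DNA sensor Mb21d1, or cGAS, was higher in every one (log2 0.63, -0.11 to 1.44). Of the interferon gamma targets 0 were lower and 1 higher, the GTPase Iigp1 at 3.93 and 13.7 CPM (log2 1.80). Of 16 other type I targets, 6 were lower in every fraction and 1 was higher (17.4% and 19.4% of genes). With cluster 6 counted, 5 of 16 were lower and 2 higher, where 17.3% and 19.6% of genes were, and of the 10 receptors and transducers then measured 5 were lower and 0 higher. The lowest ratio was that of Isg20, an exonuclease that degrades viral RNA, at 43.2 to 67.2 CPM in WB1P and 4.12 to 10.3 CPM in WB1P-Myc (log2 -2.72, -3.42 to -2.07). The ubiquitin ligase Trim25 was at 1.83 to 22.4 CPM and 34.4 to 45.1 CPM (log2 1.48, 0.91 to 2.10). Medians were -1.24 for the receptors and transducers, -0.19 for the sensors and -1.06 for the other targets.

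In macrophage-like cells 2 of 32 other type I targets were lower and 4 higher in every WB1P-Myc fraction, shares near those of all genes with at least 50 UMIs (5.48% and 12.2%). The guanylate-binding proteins Gbp3 (log2 -1.43, 77.2 and 28.7 CPM) and Gbp7 (log2 -1.33, 182 and 72.1 CPM) were lower. Ifi204, a DNA sensor of the Ifi200 family (log2 1.56, 22.4 and 66.1 CPM), Ifi27l2a (log2 1.15, 319 and 705 CPM), Slfn5 (log2 0.92, 92.1 and 174 CPM) and Slfn2 (log2 0.44, 421 and 572 CPM) were higher. Of 8 receptors and transducers Il10rb was higher (log2 0.29, -0.14 to 0.73), and of 6 sensors Aim2, which senses cytosolic DNA (log2 0.64, -0.13 to 1.49). Of 3 interferon gamma targets 1 was lower, the factor Irf8 (log2 -0.42, -0.86 to 0.04). The median of the 32 targets was 0.35.

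In fibroblast-like cells, 2 of 6 interferon gamma targets were lower in every WB1P-Myc fraction (5.76% of genes with at least 50 UMIs, and 7.62% were higher). Socs1, the feedback inhibitor of Jak kinases, was at 94.3 and 30.6 CPM (log2 -1.62, -2.36 to -0.92) and the transcription factor Irf1 at 192.5 and 136 CPM (log2 -0.50, -0.89 to -0.10). Of 9 transducers, Jak2 was lower (log2 -0.42, -1.11 to 0.27) and Irf9 higher (log2 0.97, 0.02 to 2.04). Of 18 other targets, 1 was lower, Ly6e (497 and 393 CPM, log2 -0.34), and 1 higher, Lgals3bp (154 and 202 CPM, log2 0.39). Neither of the 2 sensors was separated.

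The genes whose levels were most like those of the 6 intracellular members were sought over 43 groups of cells, each 1 class of 1 fraction, among 7930 genes with at least 200 UMIs. Likeness was Pearson's r of log2(CPM + 10) with the mean log2(CPM + 10) of the 6. The groups share libraries and depth, so r is a description. Among the 10 highest were Trim30a (r = 0.82), H2-Q4 (0.78), Cotl1 (0.73), Rab3il1 (0.73), H2-K1 (0.73), Rap1b (0.72), Gda (0.72), Fosl2 (0.72) and Tor3a (0.71). Of these, H2-Q4 and H2-K1 encode MHC class I proteins. Ifitm3 ranked 262 (r = 0.54) and Ifitm1 840 (r = 0.37).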

How the data were processed

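Single cells were sequenced in 8 HiSeq libraries, 4 droplet fractions per model; the MiSeq tables of the same fractions, tried as an alternative, share 59 barcodes with them over all 8 fractions (at most 11 in 1) and so hold nearly all other barcodes. The deposited tables hold raw counts of UMIs per gene symbol and barcode, which the authors made with dropseq-tools and used in Scanpy on build mm10, per the labels and the methods; the aligner was not given in the sources used here. Cells were kept with 450 to 4000 genes and under 20% mitochondrial UMIs, genes in at least 3 barcodes. Counts scaled to 10000 were clustered in scanpy 1.11.5 (30 components, 20 neighbours, Leiden resolution 0.3) without the members and pathway genes, and macrophage-like and fibroblast-like clusters were clustered again. No doublet caller was run; barcodes with 3 or more UMIs of another class's markers were left out as an alternative.

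Levels are pooled CPM with Poisson intervals, ratios have exact conditional binomial intervals, shares Clopper-Pearson intervals, all 95% and for counting error only. Fractions were compared at 20000 UMIs or more. Classes with at least 50 cells in each model were compared. Members enter counts and medians at 10 UMIs, and the shares of genes beside member counts are over genes with at least 10. Medians over all genes, pathway lists and the shares beside those lists use at least 50. A count of 0 would take a floor of 3. Named pathway genes were the 3 highest and 3 lowest ratios per class among listed genes with fractions that did not overlap, and genes whose list had few members; the other listed genes named with few calls in a list were chosen after their values were seen. The ratio code was tested on simulated data. A figure legend gives 2 mice per model, and no fraction is assigned to one. The members and lists were chosen with earlier results of these data known. A merged table was not used here, and 1 of the 10 genes most like the members is not reported here. R 4.3.3 with edgeR 4.0.16 and DESeq2 1.42.0 gave scaling factors only.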

Additional observations from a re-analysis of the deposited data

Results flagged for a closer look

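In 46 groups of 4 fractions with at least 10 UMIs, 2 had a fraction whose gap to the nearest other, over the whole range, was above Dixon's 95% limit. By its definition that limit is passed by chance in about 1 in 20 groups of normal values, a rate that was not checked for counts this low. Irf7 in WB1P epithelial-like cells was at 22.4 CPM in fraction 1, from 2 UMIs, while the other fractions lay between 2.98 and 5.50 CPM. Isg15 in WB1P-Myc Schwann-like cells was at 10.6 CPM in fraction 4, from 11 of 25 UMIs, while the others lay between 3.65 and 4.39 CPM. Ifitm1, lower in every WB1P-Myc fraction of the macrophage-like cells, was higher in every one of the epithelial-like cells when cluster 6 was counted with them, a difference between classes that was not tested.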

How the results depend on the processing

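No paired analysis was possible because no test between models was made and fraction numbers pair nothing. With 1 fraction left out, the median log2 ratio over members ranged from -1.44 to -0.47 (without WB1P fraction 3) in epithelial-like cells, -0.54 to 0.07 in macrophage-like cells and -0.10 to 0.47 in fibroblast-like cells. The epithelial-like median of -1.11 moved by more than the spread over fractions with a minimum of 200 genes (-0.23), under 10% mitochondrial UMIs (-0.23), with no maximum of genes (0.067), with all genes in the clustering (-0.17) and with cluster 6 counted in (-0.13, added after the data were seen). In those settings Isg15 there turned to 0.20, 0.22, 0.067, 0.11 and 0.048. In the first 4 of them, 99.2%, 97.6%, 99.6% and 99.6% of the cluster 6 cells kept were called epithelial-like, while 481 of 1226, 532 of 1068, 1152 of 1226 and 1106 of 1226 WB1P-Myc epithelial-like cells kept the name, so both changed at once. Of the 8 members counted before, 1 was at least 2-fold lower in each of these 5 settings, against 5, and 1 or 2 at least 2-fold higher, against 0. Ifit3, not among those 8, was at -1.08, -1.09, -0.235, -1.07 and -1.09. At resolution 0.6, where 329 of 1226 WB1P-Myc cells kept the name, the median was -0.70. With 1 fraction left out, 1 to 4 of 9 members were at least 2-fold lower in macrophage-like cells (2 with all fractions), 0 to 3 at least 2-fold higher there (0 with all fractions), and 0 to 4 at least 2-fold higher in fibroblast-like cells (1 with all fractions). Isg15 in macrophage-like cells ranged from -1.60 to 0.047 (without WB1P fraction 4) with 1 fraction left out. Single member ratios were set against the counting interval of the ratio given above, which is narrower than the true error. In the MiSeq run, of 8 ratios that could be had, 2 stayed within that interval, 4 moved beyond it and 2 turned. Those that turned were Ifit2 in macrophage-like cells, to 0.10, and Ifitm3 in fibroblast-like cells, to 0.022. The cause was not tested, and the 4 WB1P-Myc epithelial-like cells of that run gave no ratio. Ifitm3 (-1.82 to -0.36) and Usp18 (-3.70 to -1.91) in epithelial-like cells and Ifitm1 in macrophage-like cells (-3.69 to -2.18) kept their direction in every alternative that gave a value. TMM and DESeq2 scaling moved all macrophage-like ratios by -0.13 and -0.14. Both left all 27 member ratios within their counting intervals, as did leaving out barcodes with markers of another class. Subtracting free RNA moved 1 of 27 beyond its counting interval, Ifitm3 in epithelial-like cells (-1.82). With cells thinned to 600 UMIs, 6 of the 20 ratios that could be had moved beyond their counting intervals and 0 turned. Among the 6 were Ifitm3 in epithelial-like (-1.45) and macrophage-like cells (0.42). Ifitm1 (-2.81), Isg15 (-0.67) and Irf7 (1.36) in macrophage-like cells were others. Usp18, with 27 and 5 UMIs in epithelial-like cells, shows how few counts most members had in a class.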

Other observations

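The smaller classes were not compared between the models, and their levels are given as values. In endothelial-like cells Isg15 was at 165 CPM in WB1P (10 UMIs in 37 cells) and 95.3 CPM in WB1P-Myc (17 UMIs in 73 cells). A single cell held 5 of the 10 UMIs in WB1P. Ifitm3 in these cells was at 2639 CPM (2246 to 3081) in WB1P and 1840 CPM (1646 to 2050) in WB1P-Myc. In pericyte-like cells Ifitm3 was at 2476 CPM (2106 to 2892) in WB1P and 974 CPM (775 to 1209) in WB1P-Myc, and Ifitm1 at 156 CPM (10 UMIs in 4 of 45 cells) and 11.9 CPM (1 UMI in 58 cells). In cluster 2.2, 3 of 104 WB1P cells and 5 of 46 WB1P-Myc cells had 3 or more of the 6 intracellular members. They held 30.6% and 74.5% of the UMIs of those genes, and after thinning 1 cell in each model met the rule.

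WB1P fraction 4 held the highest Isg15 level of its model in epithelial-like (56.6 CPM), macrophage-like (379 CPM) and fibroblast-like cells (302 CPM) and in cluster 2.2 (333 CPM). A macrophage-like cell of that fraction held 27 Isg15 UMIs and another held 13. Other members varied among the fractions with at least 20000 UMIs. Ifit2 in macrophage-like cells was also highest there (166 CPM), while Ifit1 in fibroblast-like (13.4 CPM) and Ifitm1 in macrophage-like cells (113 CPM) were lowest there.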
